A study of Mus musculus with 3 samples.

Results

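Granulocyte progenitors from mice deficient in the transcription factor IRF8 were compared with granulocyte progenitors from mice carrying a 4T1 mammary tumor, gene by gene, across the transcriptome. Of the 24421 gene symbols in the deposited tables, the comparison covered the 10462 that reached 1 RPKM (reads scaled by gene length in kilobases and by library size) in at least 1 of these 2 libraries. The size of a difference is the log2(RPKM + 1) of the IRF8-deficient library minus that of the 4T1-TB library, so positive values mean higher in the IRF8-deficient library. All cells were purified by flow cytometry from the bone marrow of female mice. The IRF8-deficient library came from C57BL/6 mice with the H-2b haplotype. The 4T1-TB library came from F1 semi-syngeneic mice, carrying H-2b/d, that bore a 4T1 tumor. A library from non-tumor-bearing F1 mice of the same haplotypes (NTB) is given beside them as a reference level. The sources used here do not give the targeting of the Irf8 locus, the age of the mice, the site and time of tumor growth, the sorting gate or the number of mice behind each library. There was 1 library per group, so no spread between animals was measured, no test was possible and each difference describes these libraries. Strain differed together with genotype and tumor between the IRF8-deficient and 4T1-TB libraries. These cannot be told apart in any difference between those libraries. NTB and 4T1-TB were both from F1 mice.

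Granulocyte progenitors are committed precursors that fill successive sets of granules as they mature. Primary granules, with myeloperoxidase and serine proteases, are made first. Secondary granules, with lactoferrin and cathelicidin, follow when C/EBP factors take over, and tertiary granules and secretory vesicles come last. IRF8 is an interferon regulatory factor that favors monocytes and dendritic cells over neutrophils, and mice without it overproduce granulocytes. The 4T1 carcinoma, a mouse mammary line, secretes granulocyte colony-stimulating factor and is widely used because it too drives a massive expansion of granulocytic myeloid-derived suppressor cells. The study's title places IRF8 control of those suppressor cells at the granulocyte progenitor stage, and both settings compared here expand the granulocyte lineage.

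Whole reads could be recovered from the deposited values and summed to 36381968 in the IRF8-deficient and 23757638 in the 4T1-TB library. At the median gene length an RPKM of 1 rested on 77.7 and 66.1 reads. The intervals below are exact at 95% and cover counting error only. The ribosomal RNA precursor Rn45s took 13.6% of the IRF8-deficient reads, 6.22% of the 4T1-TB reads and 1.76% of the NTB reads, and its part in any difference was not tested. The labelled cell type was checked against its markers: Mpo, Elane and Prtn3 were among the highest genes of both libraries and all 12 listed granulocyte progenitor markers were detected in both. Cebpe, Fcgr3 and Ly6c2 of this list exceeded their 4T1-TB level by 2-fold or more in the IRF8-deficient library, and Prtn3, Ctsg and Ms4a3 were lower by as much. In bulk RNA, fewer cells of one kind and less RNA per cell cannot be told apart.

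Irf8 itself, on chromosome 8 of mm10 (120736358 to 120756694, plus strand), was lower in both libraries than in NTB. Its level was 13.7 RPKM in the IRF8-deficient library (13 to 14.5), 8.60 in the 4T1-TB library (7.96 to 9.29) and 43.8 in NTB. The deficient library thus held 1.60 times the 4T1-TB transcript (interval 1.45 to 1.76), a difference of 0.62. The files hold 1 value per gene and none per exon, so this level is no measure of functional IRF8.

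Away from Irf8 the libraries differed in both directions, and more of the differences past 4-fold were toward the IRF8-deficient library, although the largest single one, in Rprl3 (−9.22), was toward 4T1-TB. In all, 941 genes (8.99%) exceeded their 4T1-TB level by 2-fold or more in the IRF8-deficient library and 754 (7.21%) were lower by as much, and 8767 (83.8%) were within 2-fold. At 4-fold the counts were 178 and 50, at 8-fold 51 and 19, and at 16-fold 16 and 7. The differences had a median of 0.00 and quartiles of −0.43 and 0.43. Of the calls, 55.5% were thus higher in the IRF8-deficient library. This split depended on scaling: with the libraries scaled by their summed recovered reads, the median moved to −0.34 and 25.1% of calls were higher (492 against 1468). Abundant genes were called more often. Among the 81 genes with at least 1000 RPKM in either library, 28 (34.6%) were higher in the IRF8-deficient library and 6 (7.41%) lower, whereas among the 2112 genes that peaked between 1 and 5 RPKM it was 158 (7.48%) each way. Of the genes that reached 1 RPKM in 1 library alone, 419 did so in the IRF8-deficient library and 379 in 4T1-TB. Genes often used as loading references did not all stand level. Tbp, which encodes the TATA-binding protein, stood at 19.1 RPKM in IRF8-deficient and 18.6 in 4T1-TB. Actb, the beta-actin gene, stood at 6210.1 and 2674 RPKM in the same order and was called higher. Single genes such as these cannot decide between the scalings.

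**Figure D1:**
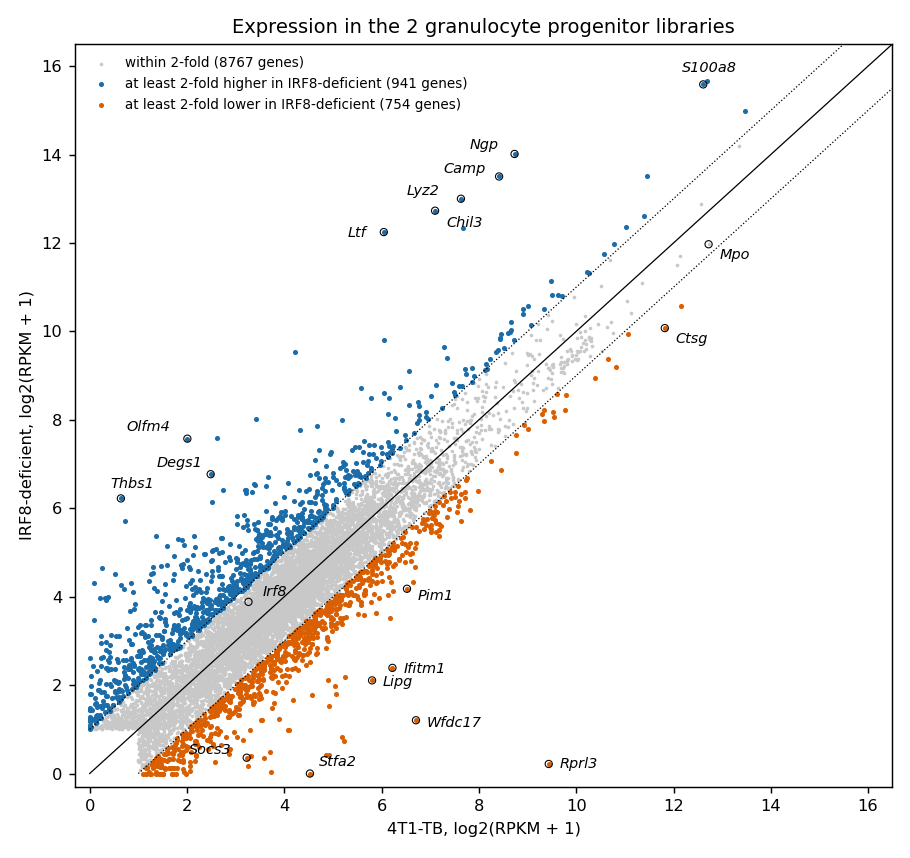
Expression of the 10462 compared genes in the 4T1-TB library (horizontal axis) and the IRF8-deficient library (vertical axis), both as log2(RPKM + 1), 1 point per gene, with dotted lines at 2-fold. The 941 genes above the upper line include secondary granule genes far from it, and the 754 below the lower line include Rprl3, Stfa2, Wfdc17 and Lipg.

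Over the 30 functional lists, the medians ran from −1.32 for ribosome biogenesis to 3.19 for secondary granule genes, against 0.00 for all compared genes. The secondary granule, tertiary granule, adhesion, interferon-stimulated and monocyte lists had the highest medians. Ribosome biogenesis, amino acid supply, the unfolded protein response and primary granules had the lowest. Some lists share members. The counts of list members below stand beside 8.99% of all compared genes called higher and 7.21% called lower. Scaling by summed reads lowered every one of the 30 medians and turned or emptied 4 of them, namely IRF8-linked genes (from 0.34 to −0.01), mature neutrophil genes (0.38 to 0.00), survival genes (0.11 to −0.22) and glycolysis (0.01 to −0.37).

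**Figure D2:**
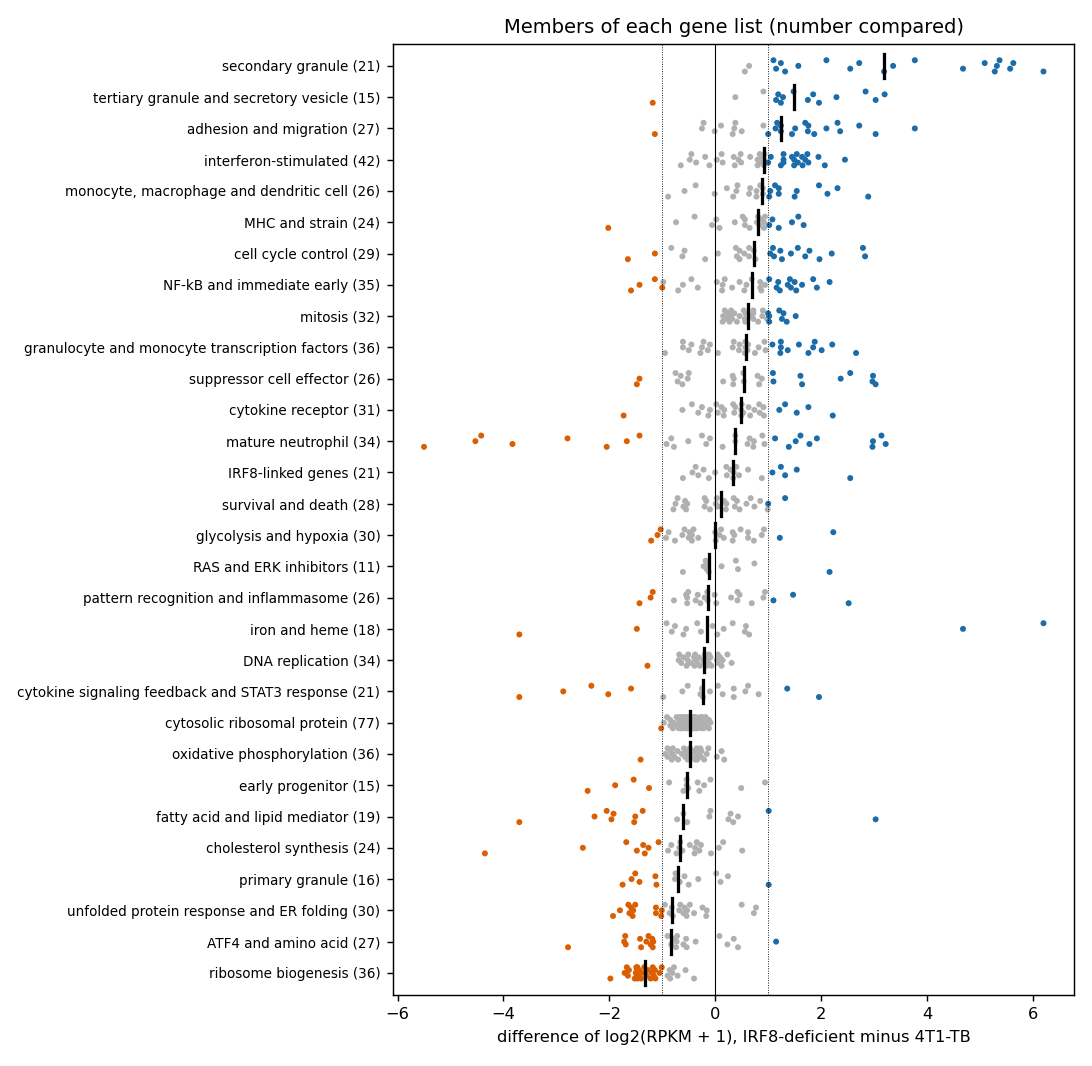
Difference of log2(RPKM + 1), IRF8-deficient minus 4T1-TB, for each compared member of 30 gene lists (1 point per gene; number compared in brackets), with the list median as a black bar, 2-fold as dotted lines, and blue points higher and orange points lower by 2-fold or more in the IRF8-deficient library. The secondary granule median is 3.19 and the ribosome biogenesis median −1.32, and under scaling by summed reads the medians of IRF8-linked, survival and glycolysis genes fall below 0 and that of mature neutrophil genes to 0.00.

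Secondary granule genes had the highest median of all lists on the IRF8-deficient side. Of 21 genes, all of them above 1 RPKM in both libraries, 19 were at least 2-fold higher in the IRF8-deficient library, none was lower and the median difference was 3.19. Ltf, which encodes the iron-binding protein lactoferrin, stood at 75.2 RPKM in NTB, 65.0 in 4T1-TB and 4856 in the IRF8-deficient library. That is 74.7-fold between the last 2 (interval 72.4 to 77.1), while the F1 libraries were close to each other. Camp, the cathelicidin antimicrobial peptide gene, stood at 546, 340.3 and 11611 RPKM in the same order, and Ngp, neutrophilic granule protein, at 632, 424 and 16528. Camp was 34.1-fold and Ngp 38.9-fold higher in IRF8-deficient than in 4T1-TB. These 3 genes share a stretch of chromosome 9 of 1195 kb (mm10, 109847379 to 111042767).

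The other leading members did the same. Lcn2, the siderophore-binding lipocalin, stood at 89.2, 203 and 5205 RPKM in NTB, 4T1-TB and IRF8-deficient (25.7-fold over 4T1-TB, interval 24.9 to 26.5). The chitinase-like gene Chil3 stood at 172, 136 and 6789 RPKM, and Olfm4, the olfactomedin that marks a subset of neutrophils, at 7.23, 3.02 and 189. Lysozyme genes were both higher, Lyz2 at 300.3, 197 and 8190.0 RPKM and Lyz1 at 28.3, 17.7 and 743. Lyz1 and Lyz2 are near-identical copies, so reads may be split between them uncertainly. Cd177, a neutrophil surface protein, had 899.6 against 65.1 RPKM in 4T1-TB (13.8-fold). Only Hp and Slc11a1 on the list stayed within 2-fold. In the RPKM sum of each library, the secondary granule list took 9.38% in IRF8-deficient and 0.778% in 4T1-TB. These sums were unequal, 645180.2 RPKM in IRF8-deficient and 457245 in 4T1-TB, so shares and levels differ by unlike amounts.

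Primary granule genes went the other way, by less. Of 16 genes, 6 were at least 2-fold lower in IRF8-deficient and 1 was higher, with a median of −0.71. Under scaling by summed reads 9 were lower, none was higher and the median was −1.07. Ctsg, cathepsin G, stood at 2112 RPKM in NTB, 3617 in 4T1-TB and 1077 in the IRF8-deficient library (3.36-fold lower than 4T1-TB, interval 3.31 to 3.41). Prtn3, proteinase 3, stood at 2992, 4585 and 1535 RPKM. Both were highest in 4T1-TB and lowest in IRF8-deficient. Mpo, the myeloperoxidase gene, had 6749 and 4012 RPKM in 4T1-TB and IRF8-deficient and Elane, neutrophil elastase, 4332 and 2889. Both were within 2-fold in the deposited values. The list took 5.66% of summed RPKM in 4T1-TB and 2.05% in IRF8-deficient, from list sums of 25858 and 13227 RPKM.

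**Figure D3:**
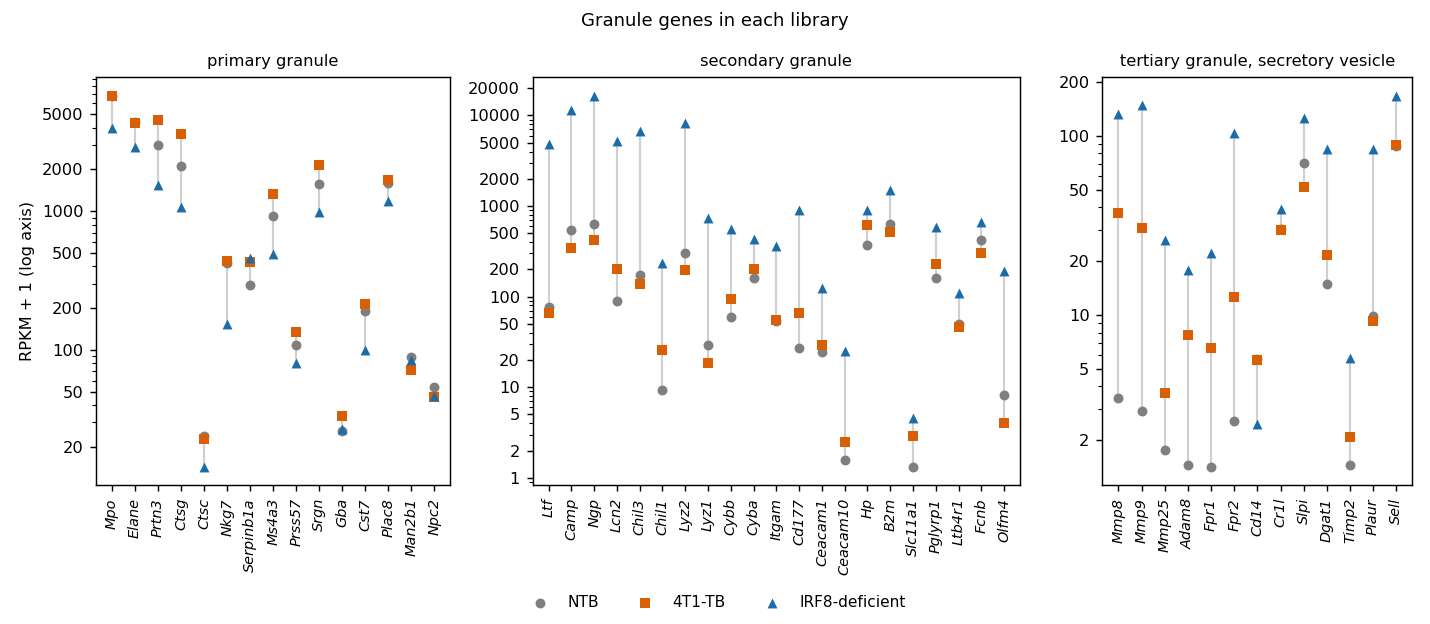
RPKM + 1 (log axis) of primary, secondary and tertiary granule genes in the NTB (grey circle), 4T1-TB (orange square) and IRF8-deficient (blue triangle) libraries, 1 library each. In the secondary granule panel the IRF8-deficient library is the highest of the 3 for every gene shown, with Ltf at 4856 RPKM against 65.0 in 4T1-TB, whereas Ctsg and Prtn3 are lowest there.

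C/EBP factors bind secondary granule gene promoters, so the sequence upstream of the 3 members with the highest level in the IRF8-deficient library is shown. Each runs 5′ to 3′ on the gene's strand and ends before the gene's first annotated exon, with matches to the C/EBP letters TTGCNNAA on either strand in capitals. The windows are chr9:110419597-110419746 (plus) for Ngp, chr9:109849618-109849706 (minus) for Camp and chr10:117282322-117282471 (minus) for Lyz2, from RefSeq promoters on GRCm38.p6.
Ngp: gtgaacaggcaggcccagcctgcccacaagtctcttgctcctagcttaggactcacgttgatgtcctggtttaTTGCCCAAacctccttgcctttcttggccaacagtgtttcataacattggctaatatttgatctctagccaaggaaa
Camp: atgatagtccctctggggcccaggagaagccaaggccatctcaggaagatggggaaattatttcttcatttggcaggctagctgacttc
Lyz2: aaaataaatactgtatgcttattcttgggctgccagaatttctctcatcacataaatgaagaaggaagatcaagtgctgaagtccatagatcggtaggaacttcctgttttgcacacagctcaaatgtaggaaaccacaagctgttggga
The Ngp match shown begins 138 bases before the RefSeq start, and another, on the minus strand 11 bases before it, lies outside the stretch printed. In the whole RefSeq windows, 250 bases before to 50 after the start, 5 of the 20 secondary granule genes with a window held these letters (25%), against 10% of the 8436 compared genes with a window. A match is a description of letters, not of binding.

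S100a8 and S100a9, the 2 subunits of calprotectin and abundant products of granulocytic suppressor cells, were the most abundant messages of the IRF8-deficient library. S100a8 stood at 4255 RPKM in NTB, 6254 in 4T1-TB and 49179.9 in the IRF8-deficient library, and S100a9 at 4413, 6556 and 51478. They were 7.86-fold (interval 7.80 to 7.93) and 7.85-fold (7.79 to 7.91) higher in IRF8-deficient than in 4T1-TB. Together the pair took 15.6% of summed RPKM in IRF8-deficient and 2.80% in 4T1-TB. The 10 highest genes took 33.2% and 14.1%.

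Most tertiary granule and secretory vesicle genes were higher in the IRF8-deficient library. Of 17 listed genes 15 were compared, 12 were at least 2-fold higher in IRF8-deficient and 1, the lipopolysaccharide co-receptor gene Cd14, was lower, with a median of 1.48. Fcnb and Ltb4r1, both among those higher, are on the secondary granule list too. Mmp8, the neutrophil collagenase, stood at 2.45 RPKM in NTB, 36.0 in 4T1-TB and 132 in the IRF8-deficient library. Mmp9, gelatinase B, stood at 1.91, 29.8 and 149 RPKM, and the formyl peptide receptor gene Fpr2 at 1.58, 11.7 and 103. Each was lowest in NTB and highest in IRF8-deficient. Plaur, the urokinase receptor, differed in that pattern, at 8.86, 8.26 and 83.9 RPKM (10.2-fold over 4T1-TB, interval 8.94 to 11.6).

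Genes of mature neutrophils split between the libraries. Of 34 compared, 10 were higher in IRF8-deficient by 2-fold or more and 8 were lower by as much, with a median of 0.38 that went to 0.00 under scaling by summed reads. On the IRF8-deficient side were Ly6g, the antigen used to sort neutrophils (8.16 RPKM in 4T1-TB, 84.3 in IRF8-deficient), Ifitm6 (46.9 and 421), the resistin-like gene Retnlg (178 and 392) and Anxa1, annexin A1 (479 and 1462). Close in both were the receptor genes Csf3r, for granulocyte colony-stimulating factor (119 and 99.7 RPKM), Cxcr2, for neutrophil-attracting chemokines (30.2 and 39.5), and the interleukin-1 decoy Il1r2 (23.9 and 22.3). NTB held 79.5, 4.38 and 1.76 RPKM of these 3.

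Higher in 4T1-TB were Wfdc17, a small whey acidic protein gene, and several stefins, inhibitors of cysteine proteases. Wfdc17 stood at 0.238 RPKM in NTB, 103 in 4T1-TB and 1.31 in the IRF8-deficient library (79.1-fold, interval 48.5 to 139). Stfa2 stood at 22 RPKM in 4T1-TB and had 0 reads in both other libraries, which against 3 reads put it at least 90.1-fold higher in 4T1-TB than in IRF8-deficient (lower limit 30.5). BC100530 stood at 0, 27.9 and 0.347 RPKM and Gm5483 at 0.324, 22.6 and 2.41. Stfa2l1 stood at 0.0539, 32.7 and 9.62 RPKM. Stfa1, at 0.534, 4.20 and 1.74 RPKM, was within 2-fold on the log2(RPKM + 1) scale. The stefins are related genes within 298 kb of chromosome 16 (mm10, 36156811 to 36455392), so their separate counts are uncertain. Ifitm1, an interferon-induced membrane protein, stood at 1.28, 73.7 and 4.24 RPKM, whereas its relative Ifitm6 was highest in IRF8-deficient. Wfdc21, another whey acidic protein gene, went the opposite way to Wfdc17, at 139, 344 and 905 RPKM.

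Feedback genes of cytokine signaling through STAT3, the factor downstream of the granulocyte colony-stimulating factor receptor, separated the libraries further. Socs3, the inhibitor that STAT3 induces against its own receptor, stood at 0.115 RPKM in NTB, 8.36 in 4T1-TB and 0.281 in the IRF8-deficient library (29.7-fold higher in 4T1-TB, interval 19.1 to 49.1). Pim1, a survival kinase, stood at 18.5, 90.9 and 17.1 RPKM (5.31-fold, interval 4.92 to 5.75). Steap4, a metalloreductase, stood at 0.0356, 12.3 and 0.0244 RPKM, the last from 2 reads (504-fold, interval 139 to 4167). For each of these the IRF8-deficient level was near NTB and 4T1-TB stood alone. The NF-kB partner Bcl3 (2.53, 9.42 and 2.46 RPKM) and the acute phase gene Saa3 (0.168, 14.5 and 2.81) were also at least 2-fold lower in IRF8-deficient than in 4T1-TB. Of 21 compared genes on this list these 5 were lower and 2 were higher, Il1rn, the interleukin-1 receptor antagonist (1.19 RPKM in 4T1-TB, 7.49 in IRF8-deficient), and the cytokine gene Osm (2.15 and 7.07). The list median was −0.23. Stat3 itself stood at 54.3 and 69.4 RPKM.

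The upstream sequences of the 3 members with the largest difference toward 4T1-TB are shown for letters of STAT, C/EBP and NF-kB factors. Capitals mark matches to STAT (TTCNNNGAA), C/EBP (TTGCNNAA) and NF-kB (GGGA and CC with any 4 bases between) letters on either strand. The windows are chr5:7960307-7960456 (plus) for Steap4, chr11:117969452-117969601 (minus) for Socs3 and chr17:29490603-29490752 (plus) for Pim1, again from RefSeq on GRCm38.p6 and ending before the first annotated exon.
Steap4: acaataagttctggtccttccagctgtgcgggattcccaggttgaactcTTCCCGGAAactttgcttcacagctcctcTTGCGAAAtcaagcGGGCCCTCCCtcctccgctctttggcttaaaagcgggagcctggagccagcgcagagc
Socs3: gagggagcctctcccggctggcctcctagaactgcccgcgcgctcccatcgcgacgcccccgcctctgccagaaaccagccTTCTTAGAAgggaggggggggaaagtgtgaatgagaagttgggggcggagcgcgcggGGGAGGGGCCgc
Pim1: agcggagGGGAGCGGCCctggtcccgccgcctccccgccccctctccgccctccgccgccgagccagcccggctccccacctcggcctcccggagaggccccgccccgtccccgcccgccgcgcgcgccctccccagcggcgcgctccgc
In Steap4 the STAT match begins 116 bases, the C/EBP match 87 and the NF-kB match shown 73 before the RefSeq start, with another NF-kB match 250 before it and outside the stretch printed, and in Socs3 the STAT match begins 154 before it. The Pim1 capitals are NF-kB letters alone. STAT letters were in 3 of the 19 list members with a RefSeq window (15.8%), against 8.37% of the 8436 compared genes with one, and NF-kB letters in 7 (36.8%) against 29.7%. C/EBP letters were in 3 (15.8%) against 10%.

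**Figure D4:**
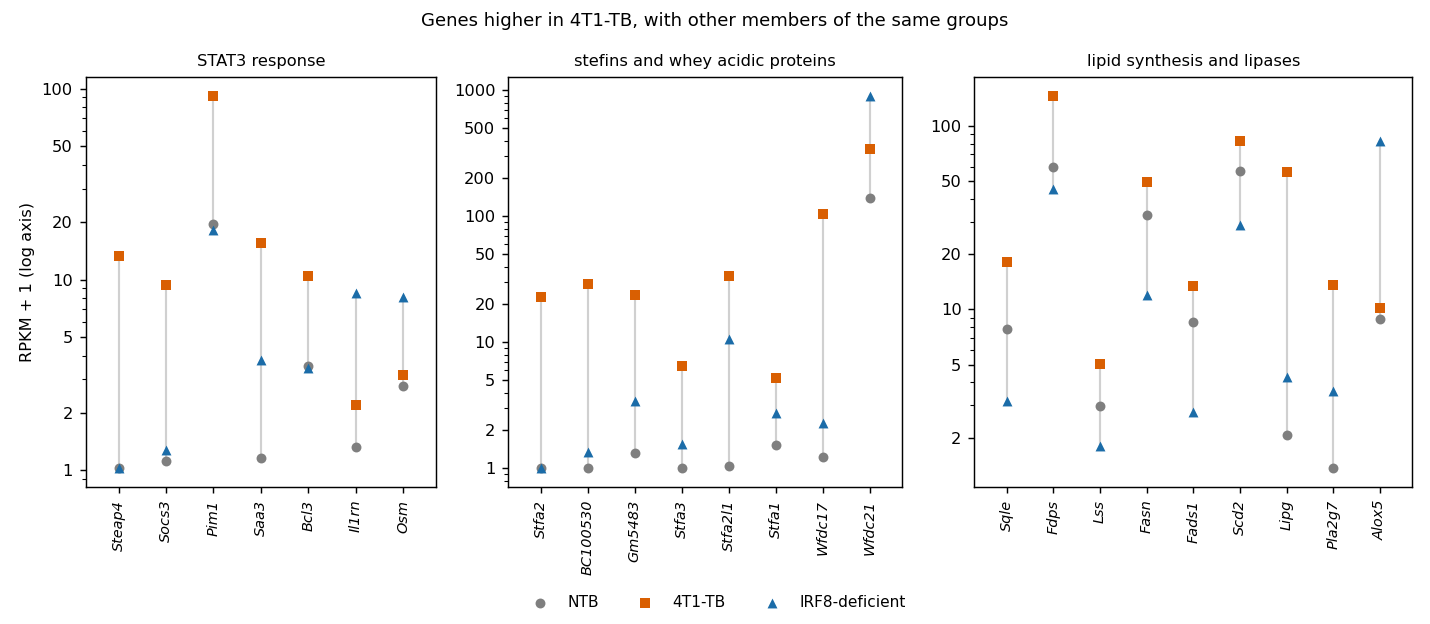
RPKM + 1 (log axis) in NTB (grey circle), 4T1-TB (orange square) and IRF8-deficient (blue triangle) of STAT3 response genes, stefins with whey acidic proteins, and genes of lipid synthesis and lipases. The STAT3 response genes plotted are those past 2-fold, and the 14 compared members within 2-fold are left out. The lipid genes plotted were likewise all past 2-fold. Socs3, Pim1, Steap4 and Wfdc17 are high in 4T1-TB alone, at 8.36, 90.9, 12.3 and 103 RPKM, whereas Il1rn, Osm, Wfdc21 and Alox5 are highest in IRF8-deficient.

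Transcription factors of granulocytes and monocytes were higher in the IRF8-deficient library or close, with 12 of 36 compared genes past 2-fold, none of them lower, and 0.59 as the median. Cebpe, which drives secondary granule formation, stood at 77.4 RPKM in NTB, 108 in 4T1-TB and 255 in the IRF8-deficient library (2.37-fold over 4T1-TB, interval 2.27 to 2.47). Klf5 stood at 2.04, 2.30 and 19.9 RPKM, Klf6 at 14.6, 12.5 and 53.2, and Id2, an inhibitor of basic helix-loop-helix factors, at 13.8, 22.2 and 106. All 4 were highest in IRF8-deficient. Factors that set up the lineage were within 2-fold in 4T1-TB and IRF8-deficient, namely Cebpa (43.3 and 36.3 RPKM), Spi1, which encodes PU.1 (130.4 and 164), Gfi1 (105 and 68.5) and Cebpb, used in emergency granulopoiesis (19.5 and 15.9). The monocyte factor Klf4 was low in both (1.51 and 1.16 RPKM, with 6.40 in NTB).

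Early progenitor genes were lower in the IRF8-deficient library where they differed. Of 22 listed genes 15 were compared, 4 were at least 2-fold lower and none was higher. Hoxa9, a homeobox factor of early progenitors, stood at 1.90 RPKM in NTB, 6.29 in 4T1-TB and 0.368 in the IRF8-deficient library (17.1-fold lower than in 4T1-TB, interval 11.9 to 25.5). Cd34, a stem and progenitor surface marker, stood at 36.9, 8.73 and 5.41 RPKM, low in both. Kit, the stem cell factor receptor, was within 2-fold at 37.5 and 53.2 RPKM.

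Among 26 genes described in the literature as linked to IRF8, 21 were compared and 5 reached 2-fold higher in the IRF8-deficient library. None was 2-fold lower, and the median was 0.34, which became −0.01 under scaling by summed reads. Among them were Cybb, Ccr2, Fas and Bcl6. Fas, the death receptor, stood at 1.13 RPKM in NTB, 1.73 in 4T1-TB and 5.78 in the IRF8-deficient library, and Bcl6, a repressor, at 4.00, 7.36 and 16.7. The chemokine receptor gene Ccr2 stood at 24.2, 13.4 and 40.8 RPKM. Low in both libraries were Ly86 (4.88 and 3.53 RPKM in 4T1-TB and IRF8-deficient) and the survival gene Bcl2 (1.65 and 2.07), with NTB at 20.3 and 6.49.

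Interferon-stimulated genes, normally induced by interferon receptor signaling, were higher where they passed 2-fold in the IRF8-deficient library. Of 50 listed genes 42 were compared, 18 were at least 2-fold higher, none was lower and the median was 0.92, while among the 33 with 1 RPKM or more in both libraries 14 were higher. A pseudocount of 5, which weighs low genes less, left 7 calls and a median of 0.45. Slfn2, a schlafen of lymphoid and myeloid quiescence, stood at 14.2 RPKM in NTB, 23.9 in 4T1-TB and 135 in the IRF8-deficient library (5.67-fold over 4T1-TB, interval 5.28 to 6.09). Ifi204, a DNA sensor, stood at 2.25, 0.491 and 4.77 RPKM, highest in IRF8-deficient. Its relatives Mndal (17.2, 3.61 and 10.2) and Pyhin1 (15, 2.54 and 9.32) were highest in NTB. Each of these sensor genes was lowest in 4T1-TB. Schlafens and these sensors are families of similar genes, so counts of single members are uncertain. Irf7, which amplifies type I interferon, stood at 1.07, 1.31 and 6.84 RPKM. Classical members were low in all libraries, with Isg15 at 0.655 RPKM in 4T1-TB and 3.65 in IRF8-deficient and Ifit1 at 0.358 and 1.15.

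Genes of the major histocompatibility complex differed in both directions. The class I gene H2-K1 stood at 133 RPKM in NTB, 137 in 4T1-TB and 439.6 in the IRF8-deficient library (3.21-fold over 4T1-TB, interval 3.11 to 3.31) and B2m, the light chain, at 627, 512 and 1520.5. H2-Q2, another class I gene, was the opposite, at 3.33, 3.20 and 0.0348 RPKM, the last from 1 read, and H2-Q1 stood at 3.95, 3.89 and 1.93. The H-2 genes are polymorphic and similar to each other, and the haplotype differed between IRF8-deficient and 4T1-TB. Strain cannot be told apart from genotype or tumor in that difference. NTB and 4T1-TB had the same haplotypes, and their levels of H2-K1, H2-Q2 and H2-Q1 were close. Of 24 compared genes on the list, 6 were at least 2-fold higher, the class II chaperone genes H2-DMb1 and H2-DMb2 among them, and H2-Q2 alone lower. Under scaling by summed reads 3 were higher.

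Monocyte and macrophage genes that passed 2-fold were higher in the IRF8-deficient library. Of 26 compared, 11 were past 2-fold and each of these was higher there, 4 lay below 0 and the median was 0.88. Under scaling by summed reads the median was 0.51, with 6 genes higher and 1 lower, and a pseudocount of 0.1 gave 14 higher and 2 lower. Lgals3, galectin-3, stood at 7.61 RPKM in NTB, 11.2 in 4T1-TB and 89.6 in the IRF8-deficient library, Ly6c2, the monocyte and progenitor antigen, at 739, 478 and 1349, and Mpeg1, perforin-2, at 44.8, 24.3 and 109. The defining dendritic cell genes Cd209a and Siglech were at or near 0 in both libraries (at most 0.0160 RPKM), and the M-CSF receptor gene Csf1r was within 2-fold (11 and 14.3). NF-kB targets and immediate early genes had 13 of 35 compared members higher and 3 lower. Among the 29 with 1 RPKM or more in both libraries 9 were higher and 3 lower. A pseudocount of 5 left 7 higher and 0 lower. On this list Nfkbia, the inhibitor of NF-kB, stood at 19.1, 23.6 and 75.5 RPKM in NTB, 4T1-TB and IRF8-deficient, and Tnf at 3.88, 3.73 and 16.9. Il1b went the other way, at 0.168, 10.9 and 3.41 RPKM.

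Most adhesion and migration genes were higher in the IRF8-deficient library, with 17 of 27 at least 2-fold higher, 1 lower and a median of 1.24. Of those higher, Itgam, Cd177, Ceacam1, Ltb4r1, Fpr1 and Fpr2 are counted on the granule lists too. The integrin pair Itgam and Itgb2, which form Mac-1, stood at 361 and 362 RPKM there and at 53.9 and 69.6 in 4T1-TB (6.69-fold and 5.20-fold). NTB held 52.2 and 49.1 RPKM. Cxcr4, which retains neutrophils in the marrow, stood at 111, 76.5 and 262 RPKM in NTB, 4T1-TB and IRF8-deficient, and the tetraspanin gene Cd9 at 28.5, 30 and 153. Icam1 was the 1 member lower (5.0 RPKM in 4T1-TB, 1.72 in IRF8-deficient).

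Cytokine receptor genes mostly stood close, with 5 of 31 at least 2-fold higher in IRF8-deficient and 1 lower. The interleukin-18 receptor chains were both higher, Il18r1 at 0.173, 0.330 and 5.18 RPKM and Il18rap at 10.2, 15.6 and 37.3 in NTB, 4T1-TB and IRF8-deficient. Il13ra1, a chain of the interleukin-4 and interleukin-13 receptor, was lower, at 0.108, 4.53 and 0.670 RPKM (6.77-fold, interval 5.19 to 8.95). Csf2rb, a signaling chain of the GM-CSF receptor, was similar in both (70.9 and 56.7 RPKM, with 24.4 in NTB), and its near-identical copy Csf2rb2 had 6.01 and 4.19.

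The effector genes of suppressor cells divided by mechanism. Oxidase and calprotectin genes were higher in the IRF8-deficient library. Cybb, the catalytic subunit of the phagocyte NADPH oxidase, stood at 58.8 RPKM in NTB, 93.4 in 4T1-TB and 552 in the IRF8-deficient library (5.90-fold over 4T1-TB, interval 5.78 to 6.03), with its partners Cyba (201 and 432) and Ncf1 (238 and 509.6) 2-fold higher as well. Nitric oxide and arginine genes were not. Nos2, the inducible nitric oxide synthase, stood at 1.78 RPKM in 4T1-TB and at 0 reads in both others, at least 66.6-fold higher than in IRF8-deficient against 3 reads (lower limit 22.4). Arg2, mitochondrial arginase, stood at 0.0788, 3.88 and 2.41 RPKM and was within 2-fold on the log2(RPKM + 1) scale. Arg1 was below 1 RPKM in both libraries. Nt5e, the CD73 ectonucleotidase that makes adenosine, stood at 0.225, 0.176 and 5.08 RPKM, and Ptges, prostaglandin E synthase, at 1.46, 0.753 and 4.47, both highest in IRF8-deficient. In total 9 of 26 compared genes were higher and 2 lower.

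Ribosome biogenesis genes, whose products build and modify ribosomal RNA in the nucleolus, were the list with the lowest median and the most members at least 2-fold lower in IRF8-deficient. All 36 were lower in the IRF8-deficient library, 28 of them at least 2-fold, and the median of −1.32 was −1.68 under scaling by summed reads. Gnl3, nucleostemin, stood at 51.2 RPKM in NTB, 60.5 in 4T1-TB and 14.5 in the IRF8-deficient library (4.16-fold lower than in 4T1-TB, interval 3.83 to 4.52). Ncl, nucleolin, stood at 99.2, 128 and 45.0 RPKM, Npm1, nucleophosmin, at 632, 745 and 268, and Nop56, of the small nucleolar ribonucleoproteins, at 109.5, 119.5 and 48.1. For these 4 genes NTB lay much nearer to 4T1-TB than to IRF8-deficient. The 77 cytosolic ribosomal protein genes were all lower as well under each scaling tried, but by less, with a median of −0.47 and only Rpl26, itself at 2.74 and 0.846 RPKM, past 2-fold. Under scaling by summed reads their median was −0.85 and 20 were at least 2-fold lower. They took 14.3% of summed RPKM in 4T1-TB and 7.24% in IRF8-deficient. Their own sums differed by less, at 65288 and 46741 RPKM, since the library sums were unequal.

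Myc, which drives these genes, was lower with them, at 69.8 RPKM in NTB, 76.6 in 4T1-TB and 25.7 in the IRF8-deficient library (2.98-fold lower than in 4T1-TB, interval 2.81 to 3.16). MXD proteins compete with MYC for their partner MAX. Of their genes, Mxd3 and Mxd1 were at least 2-fold higher, while Mxd4 (difference 0.46) and Mxi1 (0.76) stayed within 2-fold. Mxd3 stood at 4.54, 2.77 and 25.7 RPKM (9.28-fold over 4T1-TB, interval 7.38 to 11.8) and Mxd1 at 7.76, 19.6 and 69.8 (3.56-fold). MYC, MXD and MAX bind the E-box letters CACGTG. Of the 605 genes called lower in IRF8-deficient with a RefSeq window (80.2% of 754), 19.5% held those letters, against 12.3% of all compared genes with one. Among 31 ribosome biogenesis genes with a window it was 6 (19.4%). This share is not reported here for genes called higher, since 79.5% of them, just under 80%, had a window. Letters are no measure of binding, and whether MYC or MXD proteins had a part in these differences was not tested.

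Chaperones and secretion machinery of the endoplasmic reticulum were lower in the IRF8-deficient library. Of 30 genes, 12 were at least 2-fold lower, none was higher and the median was −0.81. Hspa5, the chaperone BiP, stood at 523 RPKM in NTB, 873 in 4T1-TB and 296 in the IRF8-deficient library (2.95-fold lower than in 4T1-TB, interval 2.90 to 3.00), and Calr, calreticulin, at 1183, 1811 and 588. The co-chaperone gene Sdf2l1 stood at 103, 198 and 51.2 RPKM. All 3 were highest in 4T1-TB and lowest in IRF8-deficient. The stress factors themselves differed less, with Xbp1 at 171 and 117 RPKM and Ddit3, CHOP, at 5.12 and 9.41. Amino acid supply followed, with 12 of 27 compared ATF4 and amino acid genes at least 2-fold lower and 1 higher. Asns, asparagine synthetase, stood at 15.5, 28.9 and 3.36 RPKM (8.61-fold, interval 7.33 to 10.2) and Shmt2, a mitochondrial serine enzyme, at 52.7, 70.2 and 20.6. Chac1, another ATF4 target, was the 1 higher, at 2.93 and 7.73 RPKM in 4T1-TB and IRF8-deficient.

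Several genes of sterol and fatty acid metabolism were lower in the IRF8-deficient library, and a pair of leukotriene synthesis genes was higher. Of 24 cholesterol genes 8 were past 2-fold, each of them lower, and the median was −0.67. Sqle, squalene epoxidase, stood at 6.80 RPKM in NTB, 17.1 in 4T1-TB and 2.19 in the IRF8-deficient library (7.80-fold lower than in 4T1-TB). Fdps, farnesyl diphosphate synthase, stood at 58.7, 145 and 44.6 RPKM. Both were highest in 4T1-TB and lowest in IRF8-deficient. Of 19 compared fatty acid and lipid mediator genes 8 were at least 2-fold lower and 2 higher, with a median of −0.60. Fatty acid synthase, Fasn, stood at 31.8, 48.7 and 11 RPKM and the desaturase gene Fads1 at 7.57, 12.5 and 1.77. The synthesis enzymes Acly (80.3 and 75.3 RPKM in 4T1-TB and IRF8-deficient) and Acaca (21.8 and 14.1) were within 2-fold. Lipg, endothelial lipase, stood at 1.08, 54.9 and 3.31 RPKM (16.6-fold higher in 4T1-TB, interval 14.8 to 18.6). Alox5, the 5-lipoxygenase that begins leukotriene synthesis, was the opposite, at 7.87, 9.16 and 82.2 RPKM (8.98-fold over 4T1-TB), with its activating protein Alox5ap at 151 and 305 in 4T1-TB and IRF8-deficient. Oxidative phosphorylation had a median of −0.47 with 1 of 36 genes past 2-fold, Atp5g1, and under scaling by summed reads a median of −0.85 with 11 genes at least 2-fold lower. Glycolysis had 2 genes higher and 3 lower of 30 and a median of 0.01, which moved to −0.04 with the 20 highest genes left out of the scaling and to −0.37 under scaling by summed reads. In it the glucose transporter genes parted, Slc2a3 at 2.94, 9.93 and 50.3 RPKM and Slc2a1 at 5.22, 10.3 and 4.53 in NTB, 4T1-TB and IRF8-deficient.

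Cell cycle genes combined higher mitotic transcripts with higher inhibitors in the IRF8-deficient library. All 32 mitosis genes were above 0 and 8 at least 2-fold higher with a median of 0.62, though under scaling by summed reads 10 of them lay below 0, 1 was 2-fold higher and the median was 0.25. Cenpf, a kinetochore protein gene, stood at 19.2 RPKM in NTB, 15.8 in 4T1-TB and 41.9 in the IRF8-deficient library, and Mki67, the proliferation marker, at 189.8, 186 and 368, just under 2-fold. The 34 DNA replication genes stood close, with a median of −0.22 and 1 gene, Orc1, at least 2-fold lower. In this list 26 genes lay below 0, and under scaling by summed reads all 34 did, with a median of −0.58 and 3 at least 2-fold lower. Of 29 compared cell cycle regulators 13 were higher and 2 lower. The CDK4 and CDK6 inhibitor Cdkn2c, p18, stood at 9.65, 7.2 and 55.6 RPKM (7.72-fold over 4T1-TB, interval 6.92 to 8.63). Its relative Cdkn2d, p19, stood at 10.8, 17.4 and 71.0 RPKM, and Cdkn1b, p27, at 12.7, 11.9 and 41.1. Their target Cdk4 was lower, at 169, 181 and 81.5 RPKM. The D cyclins differed in opposite directions, Ccnd2 at 25.3, 17.7 and 4.94 RPKM and Ccnd3 at 41.9, 68.4 and 149. Survival genes differed little, with 2 of 28 higher, Fas and the BH3-only gene Bmf, against 8.99% of all compared genes. Among the 24 with 1 RPKM or more in both libraries, which leave out Bmf (0.33 RPKM in 4T1-TB and 1.67 in IRF8-deficient), 1 was higher.

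**Figure D5:**
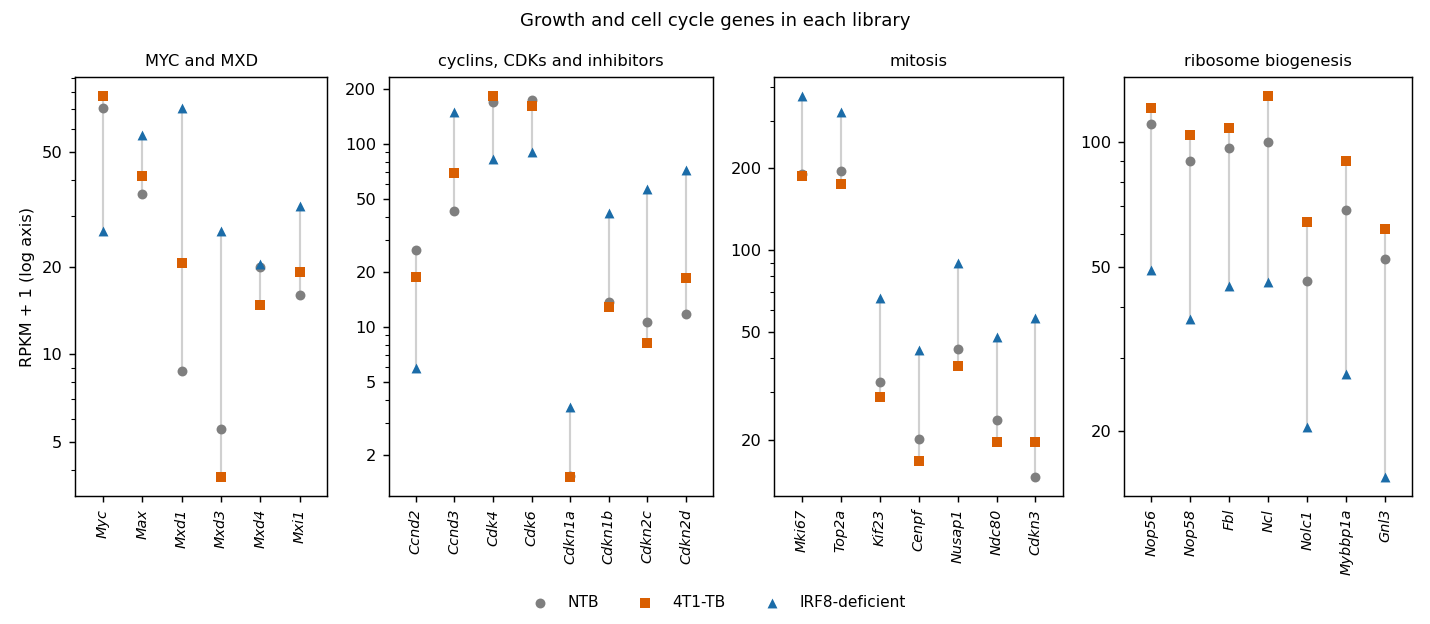
RPKM + 1 (log axis) in NTB (grey circle), 4T1-TB (orange square) and IRF8-deficient (blue triangle) of MYC and MXD genes, cyclins with kinases and inhibitors, mitosis genes and ribosome biogenesis genes. Myc and the ribosome biogenesis genes are lowest in IRF8-deficient, with Gnl3 at 14.5 RPKM against 60.5 in 4T1-TB, while Mxd3, Cdkn2c and the plotted mitosis genes are highest there, although under scaling by summed reads 10 of the 32 mitosis genes on the list are lower than in 4T1-TB.

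The genes with the largest single differences lay partly outside these lists. Toward IRF8-deficient were Thbs1, the matrix protein thrombospondin 1 (9.86 RPKM in NTB, 0.559 in 4T1-TB and 73.7 in the IRF8-deficient library, 132-fold over 4T1-TB, interval 105 to 169), and St3gal5, the ganglioside GM3 synthase (0.692, 0.661 and 51.1). Degs1, a ceramide desaturase, stood at 11.6, 4.60 and 108 RPKM and Itgb2l, a beta integrin-like gene of neutrophils, at 9.82, 9.75 and 258. Penk, proenkephalin, stood at 0.253, 0.0638 and 18.9 RPKM (296-fold, interval 81.6 to 2449, from 2 reads in 4T1-TB). Aplnr, the apelin receptor, stood at 2.5 RPKM in IRF8-deficient and at 0 reads in 4T1-TB, at least 66.1-fold higher against 3 reads (lower limit 22.3).

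Toward 4T1-TB the largest difference was in Rprl3, a short noncoding RNA gene on chromosome 8 (mm10, 3803069 to 3803358, minus strand). It stood at 610.1 RPKM in NTB, 691 in 4T1-TB and 0.162 in the IRF8-deficient library, the last from 1 read (4278-fold, interval 767 to 169002). Other genes were also much lower in the C57BL/6 library than in both F1 libraries. Ugt8a, which makes galactosylceramide, stood at 19.7, 29.0 and 0.341 RPKM, AI506816 at 12.0, 12.1 and 0.399, and Erdr1 at 50.5, 32.3 and 2.46. Strain and genotype cannot be told apart in them. Clu, the secreted chaperone clusterin, was high in 4T1-TB alone, at 1.41, 36.6 and 0.678 RPKM. Genes with 0 reads in the IRF8-deficient library and at least 2 RPKM in 4T1-TB were Stfa2, Bcat1, BC117090, Snhg9, Snora69 and Gm8580. Of these Bcat1, the cytosolic aminotransferase of branched-chain amino acids, stood at 0.832 RPKM in NTB and 2.30 in 4T1-TB (at least 162-fold higher than in IRF8-deficient, lower limit 55.0).

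Markers of other cell types were mostly low, with the exceptions named here. The carcinoma marker Epcam had 0 reads in both libraries, and Krt19, Krt14 and Krt5 were at 0 as well. The 9 carcinoma and epithelial genes summed to 5.52 RPKM in 4T1-TB and 3.85 in IRF8-deficient, with Krt18 at 2.03 and 0.219. Erythroid genes summed to 92.4 and 31.7 RPKM, of which Tfrc, the transferrin receptor that dividing cells also use, made 89.6 and 31.4, and 9 of the 15, globins among them, were listed at 0 in each library. The T and NK list (436 and 153 RPKM) consisted almost wholly of Nkg7, also a primary granule list member, with Cd3e at 0 in both. B cell genes summed to 13 and 13.2 RPKM, most of it Cd79b (12.3 and 10.3), and plasmacytoid and dendritic cell genes to 28.7 and 24.4. Stromal genes summed to 77.5 and 17.7 RPKM, of which Vcam1, an adhesion molecule that myeloid cells can carry, made 71.3 and 10.5. Collagens Col1a1 and Col3a1 were below 1 RPKM in both. Basophil and mast cell genes summed to 84.7 and 65.7 RPKM, most of it Hdc, histidine decarboxylase (61.4 and 54.5), while the basophil protease gene Mcpt8 was at least 2-fold lower in IRF8-deficient (20.4 and 8.73). Platelet genes summed to 1.75 and 3.58 RPKM, with Gp1bb, a subunit of the von Willebrand factor receptor, at least 2-fold higher in IRF8-deficient (0.0864 and 1.45). Eosinophil genes summed to 13 and 35.5 RPKM, the difference being Ear2 (0.189 and 24.1), an eosinophil-associated ribonuclease with close copies, while Epx, the eosinophil peroxidase, was at 0.1 and 0.0285. The part of these lists in the differences above was not tested.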

How the data were processed

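Total RNA of flow-sorted bone marrow granulocyte progenitors was extracted with TRIzol and made into Illumina libraries, per the labels' protocols, 1 library each for NTB, 4T1-TB and IRF8-deficient mice. The values deposited by the authors are RPKM per gene symbol. Build mm10, edgeR 3.12.1, HTSeq 0.6.1, Picard 1.97, TopHat2 2.0.13, cutadapt 1.2.1 and CASAVA 1.8.2 are listed in the submitters' processing notes, with no role stated. Annotation, strandedness and how library sizes were set: not given in the sources used here.

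From the deposited RPKM, whole reads were recovered through the ratios between libraries, for 13785 of 13786 genes above 0 in 2 or more libraries. Implied gene lengths were whole for 91.7% of well-covered genes and within 0.8 to 1.25 of the GENCODE M21 exon length for 91.5%. The library sizes implied by the RPKM were 0.935 (4T1-TB) and 0.718 (IRF8-deficient) times the summed reads (1.04 in NTB), for a reason not given in the sources used here. Reads served for depth, intervals (Clopper-Pearson for ratios, Poisson for levels), floors of 3 reads and 1 alternative scaling.

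Differences of log2(RPKM + 1), which understate low genes, were taken over genes with at least 1 RPKM in either library and called at a difference of 1. Some genes are not reported here. The members and gene lists were chosen with earlier results of these data known. Named genes were Irf8, the 15 largest differences each way among genes of at least 5 RPKM (without small RNAs, histones, ribosomal proteins, antigen receptor segments, pseudogenes or predicted genes), the 10 highest genes per library, the first 4 and 6 most different members of each list, the first 3 markers of each cell type and genes at 0 reads in 1 library with at least 2 RPKM in the other. Other genes, among them Cebpe, Csf3r, Cxcr2, Npm1, Cdk4 and Tbp, were named after their values were seen. Promoter letters were searched on both strands of RefSeq windows (GRCm38.p6), which 80.6% of compared genes had. Alternatives were pseudocounts of 0.1 and 5, 3 other scalings, other filters, a 4-fold threshold and a requirement that the counting interval of the ratio exclude 1. Scripts were tested on simulated data and used Python 3.11.15, numpy 2.4.6, pandas 2.3.3, scipy 1.17.1 and matplotlib 3.10.9.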

Additional observations from a re-analysis of the deposited data

How the results depend on the processing

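The 941 genes higher and 754 lower became 475 and 311 with a pseudocount of 5, 492 and 1468 when libraries were scaled by summed recovered reads, and 178 and 50 when a call needed 4-fold. Under the other settings tried (a pseudocount of 0.1, leaving the 20 highest genes out of the scaling, scaling by the median ratio, other RPKM minimums or none, and a requirement that the counting interval of the ratio exclude 1) both counts stayed within 1.5 times. Rescaling without the 20 highest genes gave 865 higher and 818 lower, or 51.4% of calls higher in place of 55.5%, and scaling by summed reads gave 25.1%. Of 252 named genes called at 2-fold, none turned direction under any scaling or pseudocount tried, 65 came within 2-fold with a pseudocount of 5, 6 without the 20 highest genes and 36 of 251 under scaling by summed reads. Secondary granule genes kept a median of 2.81 and 15 of 19 calls under that last scaling, ribosome biogenesis genes −1.68 and 34 calls, interferon-stimulated genes 0.57 and 13 calls, and adhesion genes 0.86 and 12. Calls became fewer for cell cycle regulators (8 higher, 3 lower), NF-kB targets (9 and 5) and transcription factors (8 and 1), and more for amino acid genes (18 lower). The cause of the gap between the library sizes implied by RPKM and the summed reads was not tested. With 1 library per group no replicate could be left out. No paired analysis was possible because each group holds 1 library. Low genes rest on few reads, and ratios resting on 1 to 3 reads have wide intervals.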

Other observations

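The genes in these paragraphs stand outside the lists, were picked after their values were seen and stand for no group. Some encode chaperones. Hspd1 and Hspe1, which form the mitochondrial chaperonin, stood at 223 and 143 RPKM in 4T1-TB and 61.2 and 40.6 in IRF8-deficient (NTB 160.1 and 108). Hspa9, mitochondrial HSP70, stood at 138 and 42.8 RPKM, Hspa8, the constitutive cytosolic HSP70, at 1609.9 and 662, and Hsp90aa1 at 646 and 251. The stress-induced pair Hspa1a and Hspa1b, near-identical copies, stood in another order, at 123 and 137 RPKM in NTB, 35.0 and 37.4 in 4T1-TB and 9.68 and 10.7 in IRF8-deficient. Of polyamine synthesis genes, Odc1, ornithine decarboxylase, stood at 81.1 and 27.4 RPKM and Srm, spermidine synthase, at 98.7 and 19.0 in 4T1-TB and IRF8-deficient.

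Other genes were higher in the IRF8-deficient library. Padi4, which citrullinates histones in extracellular traps, stood at 3.32 RPKM in NTB, 5.68 in 4T1-TB and 84.2 in the IRF8-deficient library, and Lbr, the lamin B receptor, at 112, 126 and 231, within 2-fold of 4T1-TB. The immunoreceptor adaptors Fcer1g and Tyrobp stood at 35.6 and 161 RPKM in 4T1-TB and 254 and 679 in IRF8-deficient. Complement C3 stood at 203, 155 and 798 RPKM in NTB, 4T1-TB and IRF8-deficient, and Inhba, the activin A subunit, at 0.642, 1.56 and 40.4. The imprinted adaptor gene Grb10 and the endothelial kinase gene Tie1 were near 0 in IRF8-deficient (0.119 and 0.316 RPKM) and similar in the F1 libraries (8.56 and 9.01 in 4T1-TB, 4.88 and 10.5 in NTB), where strain and genotype cannot be told apart. By chromosome, the share of compared genes called higher was largest on chromosome 13 (13.9%, against 8.99% of all) and the share called lower on chromosome 16 (11.4%, against 7.21%).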
